A study of Mus musculus with 11 samples.

Results

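The Hox clusters of the mouse genome carry a small set of miRNA genes among their homeobox genes, and 6 of the mature miRNAs made there were followed in mouse brain: mmu-miR-10a-5p, mmu-miR-10a-3p, mmu-miR-10b-5p, mmu-miR-196a-5p, mmu-miR-196b-5p and mmu-miR-615-3p (mmu, for mouse, is left out from here on). They were picked by name from the 1907 miRNA names counted in each library, with earlier results of these libraries known, so their levels and their difference between the groups are a description. Where a call of the fit across all miRNAs is given for them, it stands beside the share of all miRNAs called and is not evidence about them. The libraries came from male Balb/cOlaHsd mice, labelled as 3 months old, 3 days after surgery. The sham group held 6 mice with a sham operation and tissue labelled as cortex, and the pMCAO group held 5 mice with a permanent occlusion of the middle cerebral artery, a stroke model without reperfusion, and tissue labelled as peri-ischemic cortex, the rim around the ischemic core. The methods name peri-ischemic tissue for both groups. The sampled region therefore differs between the groups by the labels but not by the methods.

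Hox genes set the position of cells along the head-to-tail axis of the embryo and stay active in hindbrain, spinal cord and many tissues of the trunk, whereas the forebrain forms in front of their domain. miRNAs are short RNAs that pair through their seed (bases 2 to 8) with mRNAs and lower their output. Those of the miR-10 and miR-196 families are transcribed with their Hox neighbours and have Hox mRNAs among their known targets. Outside the embryo, miR-10a is known from vascular endothelium and from cells of the immune system.

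All 6 miRNAs and the 5 other arms of their hairpins were found in RefSeq's table for GRCm38.p6, the assembly also called mm10. Their mature sequences are shown to separate the seed families, with the seed in capitals.
miR-10a-5p: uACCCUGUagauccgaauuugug
miR-10b-5p: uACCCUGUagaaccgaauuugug
miR-196a-5p: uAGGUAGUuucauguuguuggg
miR-196b-5p: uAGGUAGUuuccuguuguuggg
miR-615-3p: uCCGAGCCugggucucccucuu
miR-10a-3p: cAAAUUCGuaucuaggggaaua
The miR-10 pair shared 1 seed and differed by a single base (U12A from miR-10a-5p to miR-10b-5p, counted from the 5′ end), outside the seed. The miR-196 pair also differed by 1 base (A12C from miR-196a-5p to miR-196b-5p). Among the 1623 of the 1907 names that had a sequence, the seed of miR-10a-5p occurred in 2 names and that of miR-196a-5p in 2, the members of each pair. miR-615-3p and miR-10a-3p each had a seed of their own.

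The genes sit in all of the Hox clusters. Mir10a lies on the plus strand of chromosome 11 (hairpin chr11:96317165-96317274), between Hoxb5 and Hoxb4, 992 bases before the start of Hoxb4, and overlapped no other annotated gene. Mir10b lies on the plus strand of chromosome 2 (chr2:74726070-74726137), in introns of annotated Hoxd3 and Hoxd4 transcripts. miR-196a-5p has 2 genes with the same mature sequence, Mir196a-1 near Hoxb9 (chr11:96265164-96265265) and Mir196a-2 between Hoxc10 and Hoxc9 (chr15:102973350-102973434), both on the plus strand. Mir196a-2 also lies in an intron of 1 annotated Hoxc5 transcript on the same strand. Mir196b lies on the minus strand (chr6:52230081-52230165) and overlaps exons of 2 annotated Hoxa9 transcripts, and Mir615 lies in an intron of Hoxc5 (chr15:103014910-103015001, plus strand). The RefSeq table placed no other miRNA gene inside the spans of these clusters.

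Sham libraries held between 1429037 and 2319810 counts and pMCAO libraries between 744877 and 1411620, so every pMCAO library was the shallower. The 3 counts taken as the floor of detection correspond to 1.495 to 3.54 CPM (counts scaled to a common library size by TMM, which adjusts for libraries of different composition), and this floor was higher in 4 of 5 pMCAO libraries than in any sham library. Mature miRNAs differ little in length, so CPM values are compared between them without a length correction. miR-124-3p, the defining miRNA of neurons, was present at 148048 CPM or more in every library, as brain tissue would have it.

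Of the 6 Hox-cluster miRNAs, 3 had counts somewhere and 3 had 0 counts in all 11 libraries. Together the 6 took 401 of 15822465 counts, which is 0.00253% of the total, and miR-10a-5p alone made up 83.0% of these. Only miR-10a-5p passed the filter on low counts. The order of levels was the same in both groups by mean CPM, with miR-10a-5p first, miR-10b-5p next and miR-615-3p last.

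The silent members were miR-10a-3p, miR-196a-5p and miR-196b-5p. miR-196a-5p is the miRNA known to direct cleavage of Hoxb8 mRNA, and miR-196b-5p is its near copy from the HoxA cluster. Zero counts over all libraries allow a level of up to 0.190 CPM of the summed libraries (counting error only), and 640 of the 1907 names (33.6%) were equally without a count. The sources used here do not give how reads matching both miR-196a genes were assigned. Of the 51 names with more than 1 gene, 42 had a count. Among them miR-128-3p, with 2 genes, had 44034 to 207894 counts per library. The part of read assignment in the 0 counts of miR-196a-5p was not tested. miR-10a-3p is the other arm of the hairpin that gave 333 counts of miR-10a-5p.

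miR-615-3p, from the intron of Hoxc5, was at the edge of detection. It had 1 count in sham replicate 2, 1 count in sham replicate 5, 2 counts in pMCAO replicate 3 and 0 in the other libraries. No library reached the floor of 3 counts, so no fold change is given. Of the 5 other arms of these hairpins (miR-10b-3p, miR-196a-1-3p, miR-196a-2-3p, miR-196b-3p and miR-615-5p), 4 had no count in any library, and miR-196a-2-3p had 1 count, in pMCAO replicate 1.

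miR-10b-5p, from the HoxD cluster, was seen in every library at very low level. The sham libraries, replicates 1 to 6, held 7, 13, 1, 7, 5 and 4 counts, which are 4.43, 6.48, 0.683, 4.31, 3.64 and 2.37 CPM. The pMCAO libraries, replicates 1 to 5, held 3, 2, 4, 3 and 15 counts, which are 3.37, 2.36, 3.20, 2.27 and 9.70 CPM. The groups overlapped almost fully, and the highest value of all belonged to pMCAO replicate 5. The sham mean was 3.65 ± 1.98 CPM (SD, n = 6) and the pMCAO mean 4.18 ± 3.12 CPM (SD, n = 5), a log2 ratio of means of 0.20. This difference was smaller than the spread in either group, and without pMCAO replicate 5 the log2 ratio was -0.37. In the fit without a filter on low counts, the estimate for miR-10b-5p was 0.20 ± 0.51 (SE, log2).

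miR-10a-5p, from the HoxB cluster, was the one member with a clear level in every library. In the sham libraries, replicates 1 to 6, it had 36, 10, 12, 14, 16 and 15 counts, which are 22.8, 4.98, 8.20, 8.62, 11.6 and 8.88 CPM. In the pMCAO libraries, replicates 1 to 5, it had 24, 95, 41, 22 and 48 counts, which are 27.0, 112, 32.8, 16.7 and 31.0 CPM. Sham replicate 1 stood above the other sham libraries, pMCAO replicate 2 stood far above all other libraries, and 4 of the 5 pMCAO libraries exceeded every sham library. The exception was pMCAO replicate 4, which was below sham replicate 1 only.

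**Figure D1:**
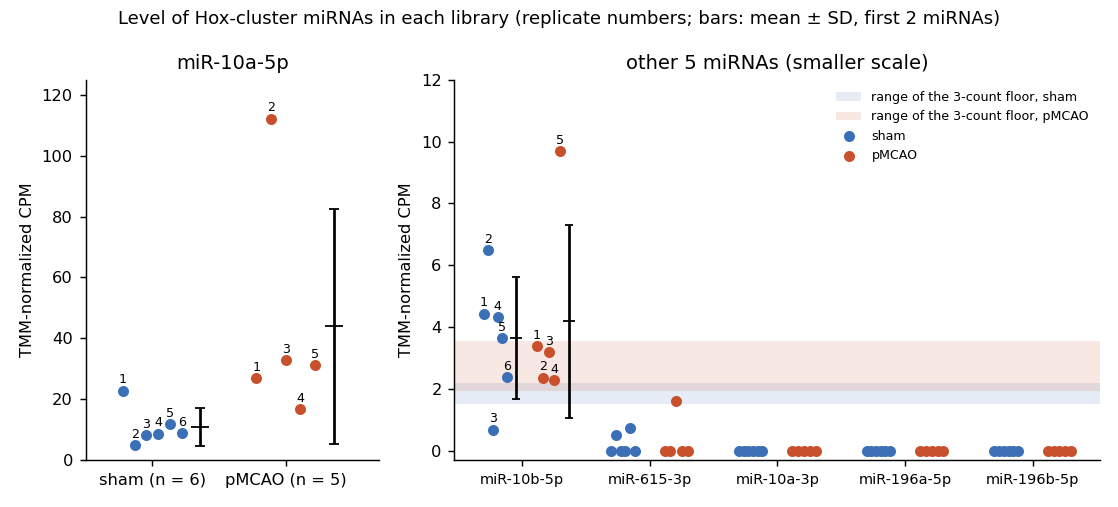
TMM-normalized CPM of the 6 Hox-cluster miRNAs in each library, with miR-10a-5p on its own scale at left. Points are libraries with their replicate numbers (blue sham, red pMCAO), black bars are the mean ± SD, and shaded bands are the ranges of the 3-count floor. miR-10a-5p spans 4.98 to 22.8 CPM in sham and 16.7 to 112 CPM in pMCAO, while miR-10b-5p overlaps and 3 members lie at 0.

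miR-10a-5p averaged 10.9 ± 6.22 CPM (SD, n = 6) over the sham and 43.9 ± 38.7 CPM (SD, n = 5) over the pMCAO libraries, a 4.05-fold difference. The medians were 8.75 and 31.0 CPM. The log2 fold change from edgeR's fit across all 479 miRNAs that passed the filter was 1.99 (standard error 0.48). It ranked 9 of 479 by log2 fold change, and miR-10a-5p rose from rank 376 to 484 by count in the sham libraries to rank 253 to 405 in the pMCAO libraries.

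At an adjusted p under 0.05 from that fit (Benjamini-Hochberg), 1 of the 1 members tested was called, and it was higher in pMCAO. Over all miRNAs tested, 34 of 479 (7.1%) were called, 21 higher (4.38%) and 13 lower (2.71%). Groups without overlap and with pMCAO higher were found for 20 of 479 (4.18%), or 36 (7.52%) in either direction, and miR-10a-5p was not among them. Nothing is read from these counts, since the miRNA was chosen with this contrast known.

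The size of the difference rested in part on pMCAO replicate 2. Without it, its log2 difference fell to 1.31 ± 0.36 (SE) and miR-10a-5p was no longer called. Without sham replicate 1 it was 2.36 (standard error 0.48), and without both libraries 1.67 (standard error 0.28). In these 2 fits, and without pMCAO replicate 4 (2.21), the groups did not overlap. This was fixed by the choice of library, since only sham replicate 1 (22.8 CPM) and pMCAO replicate 4 (16.7 CPM) overlapped. Nothing is read from it. Leaving out sham replicate 1 and pMCAO replicate 2 together was added after the data were seen. The call was also lost without sham replicate 2, 3, 4 or 6, where the log2 fold change lay between 1.84 and 1.94.

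**Figure D2:**
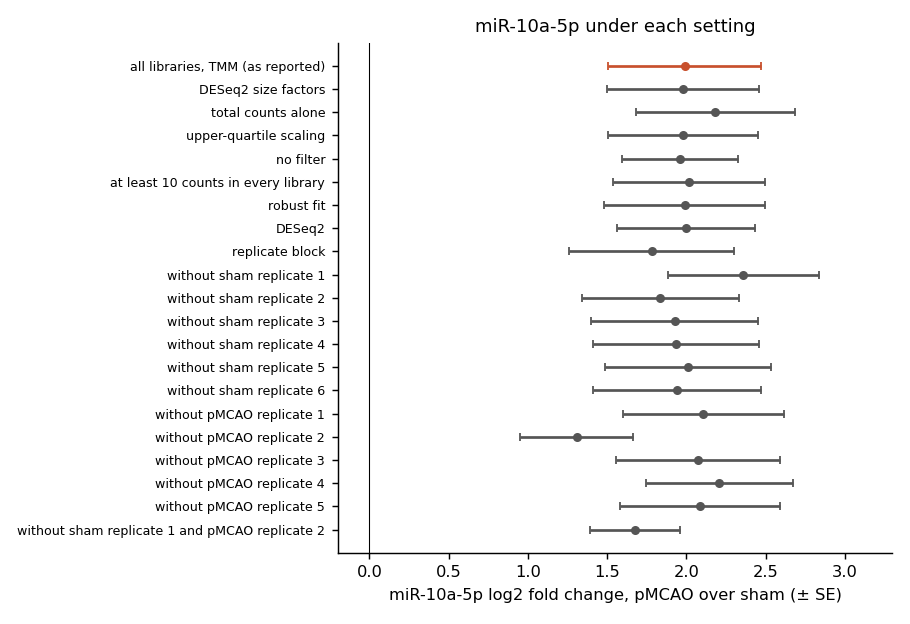
log2 fold change of miR-10a-5p, pMCAO over sham, with its standard error (horizontal axis), for the fit as reported (red) and for each other setting (grey, vertical axis). All estimates lie above 0, the lowest at 1.31 without pMCAO replicate 2 and the highest at 2.36 without sham replicate 1.

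The balance within the miR-10 pair does not depend on how libraries are scaled. miR-10a-5p outnumbered miR-10b-5p in 5 of 6 sham and 5 of 5 pMCAO libraries. Its share of their summed counts had a median of 77.6% in sham (lowest 43.5%, highest 92.3%) and 88.9% in pMCAO (lowest 76.2%, highest 97.9%). The groups overlapped. The lowest share was that of sham replicate 2, from 10 and 13 counts, with a 95% Wilson interval of 25.6 to 63.2%. The highest was that of pMCAO replicate 2, from 95 and 2 counts, with an interval of 92.8 to 99.4%. Reads carry no molecular identifiers, so these intervals and the floors cover counting error only. The pair differs by 1 base, and the settings that decide how a read with a mismatch is placed are not given in the sources used here.

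**Figure D3:**
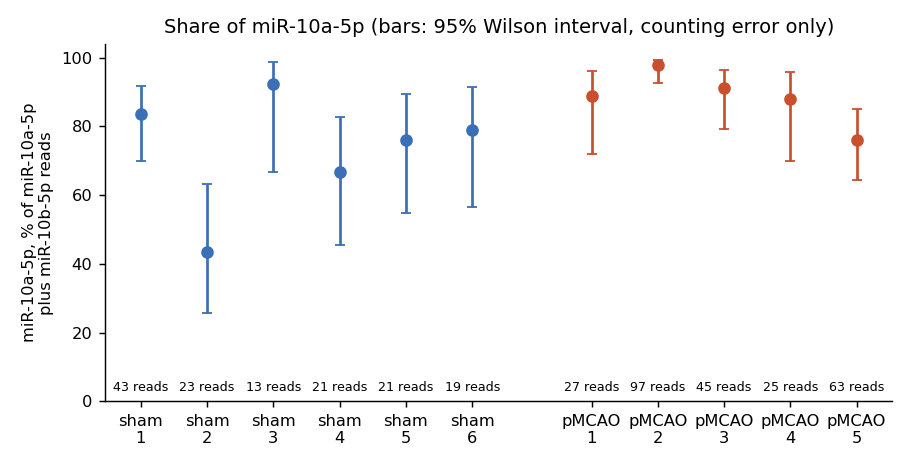
Percent of miR-10a-5p in the summed counts of miR-10a-5p and miR-10b-5p (vertical axis) for each library (horizontal axis), with 95% Wilson intervals and the number of reads behind each value. The shares run from 43.5 to 92.3% in sham and from 76.2 to 97.9% in pMCAO, and most sham values rest on few reads.

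miR-99a, miR-99b and miR-100 are relatives of miR-10 that lie outside the Hox clusters and are abundant in brain. Their sequences are shown beside miR-10a-5p to give the distance between them.
miR-10a-5p: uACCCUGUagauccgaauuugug
miR-100-5p: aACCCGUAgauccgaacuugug
miR-99a-5p: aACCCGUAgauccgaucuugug
miR-99b-5p: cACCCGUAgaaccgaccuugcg
From miR-10a-5p, 3 single-base changes or gaps lead to miR-100-5p, 4 to miR-99a-5p and 6 to miR-99b-5p. Mean sham levels were 5706 ± 1370 CPM for miR-99a-5p, 2063 ± 780 CPM for miR-99b-5p and 1436 ± 148 CPM for miR-100-5p (SD, n = 6), far above the level of miR-10a-5p. Of the 6 arms of these hairpins, 5 were tested and 0 were called in either direction (edgeR, adjusted p under 0.05), with a median log2 fold change of -0.12, against 0.0015 over all 479 (0.04 and 0.18 when scaled by total counts alone). The estimates were -0.15 (standard error 0.33) for miR-99a-5p, -0.11 (standard error 0.29) for miR-99b-5p and -0.12 (standard error 0.16) for miR-100-5p. DESeq2 also called 0 of them, and 1 of the 5, miR-99b-3p, had an unadjusted p under 0.05 (adjusted p = 0.179 from edgeR). Their summed level was 8792 CPM in pMCAO replicate 2, which ranked 3 among the pMCAO libraries. The library with the most miR-10a-5p thus did not have the highest sum of its relatives. Of the single arms, it had the most miR-99b-5p and miR-99b-3p among pMCAO libraries, but not the most of any miR-99a or miR-100 arm.

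**Figure D4:**
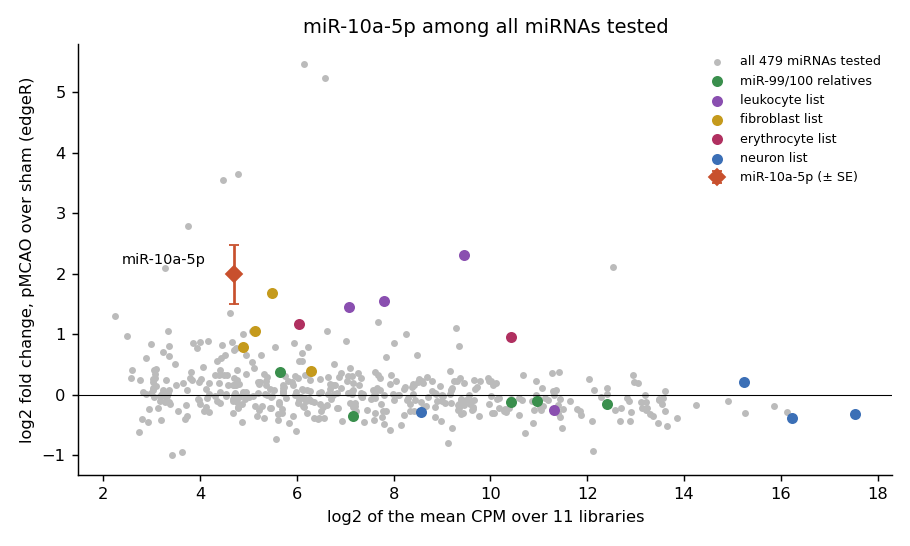
log2 fold change, pMCAO over sham (vertical axis), against log2 of the mean CPM over all libraries (horizontal axis) for the 479 miRNAs tested. miR-10a-5p (red diamond, ± standard error) lies at 1.99, the miR-99/100 relatives (green) lie near 0, and 3 of the 4 leukocyte miRNAs tested (purple) lie between 1.46 and 2.31, with miR-150-5p at -0.25.

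Markers of other cells that a piece of injured cortex could hold were compared library by library. In bulk tissue, more cells of a type and more RNA per cell cannot be told apart. The lists were chosen with earlier results of these data known, so their calls are a description. Some members, miR-214-3p among them, were named after their values were seen. Over all miRNAs tested, 21 of 479 (4.38%) were called higher and 13 (2.71%) lower. Of the 6 leukocyte miRNAs, 4 were tested and 3 were called higher in pMCAO, and of the 5 fibroblast miRNAs, 4 were tested and 1 was called higher (3 of the 4 by DESeq2, which also called 3 leukocyte miRNAs). The fibroblast call was lost in 5 of 11 fits that left out 1 library, those without sham replicate 3, 4 or 6 or pMCAO replicate 2 or 5, while 3 leukocyte calls were made in each of the 11. miR-223-3p, typical of neutrophils and monocytes, rose by 2.31 ± 0.43 (SE) on the log2 scale (edgeR, adjusted p = 0.00544). Both arms of miR-142a, a miRNA of blood-derived cells, rose by 1.55 (standard error 0.29) and 1.46 (standard error 0.28) on the log2 scale, and miR-214-3p, typical of fibroblasts, by 1.68 (standard error 0.41). miR-199b-5p, the most abundant fibroblast-list member, stood at 0.39 ± 0.25 (SE, log2) and was not called. miR-150-5p, the most abundant leukocyte-list member, stood at -0.25 ± 0.15 (SE, log2) and was not called.

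The library with the most miR-10a-5p also had the most of each marker called higher in the edgeR fit of all libraries. pMCAO replicate 2 held 2751 CPM of miR-223-3p, against 427 to 1123 CPM in the other pMCAO libraries. It held 378 CPM of miR-142a-5p, against 118 to 221 CPM, and 157 CPM of miR-214-3p, against 32.6 to 75.0 CPM. Its miR-150-5p, at 2661 CPM, was within the sham range of 2057 to 3325 CPM, and its miR-150-3p, at 1.18 CPM, was the lowest of all libraries. Summed over the lists, the leukocyte level there was 6366 CPM, with 4284 CPM as the next highest among pMCAO libraries, and the fibroblast level was 465 CPM, with 237 CPM next. The endothelial and mural lists, described below, also had their highest pMCAO sums there. These were 13642 CPM, with 12607 CPM next, and 8491 CPM, with 7578 CPM next. The part of these cells in the miR-10a-5p difference was not tested.

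Sham replicate 1, which had the most miR-10a-5p among sham libraries, held 5111 CPM of miR-451a, the main miRNA of erythrocytes, against 42.6 to 252 CPM in the other sham libraries. Its miR-142a-5p, at 105 CPM, was also the highest of the sham libraries, but its miR-223-3p, at 393 CPM, was below that of sham replicate 2, at 410 CPM. Sham replicate 2 had the lowest miR-10a-5p of all 11 libraries. pMCAO replicate 2 held 1023 CPM of miR-451a, which was below 3 other pMCAO libraries. The part of blood in the level of sham replicate 1 was not tested.

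Summed levels of the leukocyte list ran from 2423 to 3720 CPM in sham and from 3152 to 6366 CPM in pMCAO libraries, those of the fibroblast list from 102 to 183 and from 158 to 465 CPM, and those of the erythrocyte list from 47.4 to 5368 and from 638 to 4728 CPM. Of the 3 erythrocyte miRNAs, 2 were tested and 0 were called, with a median log2 fold change of 1.07. Without sham replicate 1, both were called higher and the median was 3.73. The endothelial list, miR-126a-3p and miR-126a-5p, ran from 9184 to 13005 CPM in sham and from 9510 to 13642 CPM in pMCAO, and 0 of its 2 members were called. miR-126a-3p, the defining miRNA of endothelium, stood at -0.05 ± 0.10 (SE, log2). The mural list, led by miR-145a-5p of smooth muscle and pericytes, ran from 6830 to 11450 CPM in sham and from 6288 to 8491 CPM in pMCAO, with 0 of 4 called.

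Neuron miRNAs, led by miR-124-3p, summed to between 285737 and 365920 CPM in sham and between 245427 and 290667 CPM in pMCAO, with the lowest sum in pMCAO replicate 2 and 0 of 4 called. The oligodendrocyte list ran from 4534 to 5470 CPM and from 2741 to 5234 CPM, and 1 of its 4 members was called lower, miR-338-3p at -0.54 (standard error 0.15, adjusted p = 0.0453 from edgeR). This call was lost in 10 of the 11 fits that left out 1 library (kept without pMCAO replicate 3) and in 5 of the 8 other fits. The choroid plexus list, led by miR-204-5p, ran from 1398 to 2042 CPM in sham and from 996 to 1630 CPM in pMCAO, with 0 of 2 tested called. The muscle list (416 to 681 and 333 to 503 CPM, led by miR-1a-3p) and the skin epithelium list (213 to 296 and 239 to 310 CPM, led by miR-203-3p) had 0 of 3 and 0 of 2 tested members called. At an unadjusted p under 0.05, edgeR had 3 of the 4 tested neuron, 2 of the 3 muscle, 1 of the 2 choroid plexus, 1 of the 2 skin epithelium and 0 of the endothelial, mural and erythrocyte miRNAs, and DESeq2 called 0 in these 7 lists. In edgeR, 1 neuron miRNA was called lower without sham replicate 6, 1 muscle miRNA was called lower without sham replicate 5 or pMCAO replicate 3, and 1 skin epithelium miRNA was called higher with total counts alone. No marker of these 10 cell type lists was at 0 in all libraries.

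**Figure D5:**
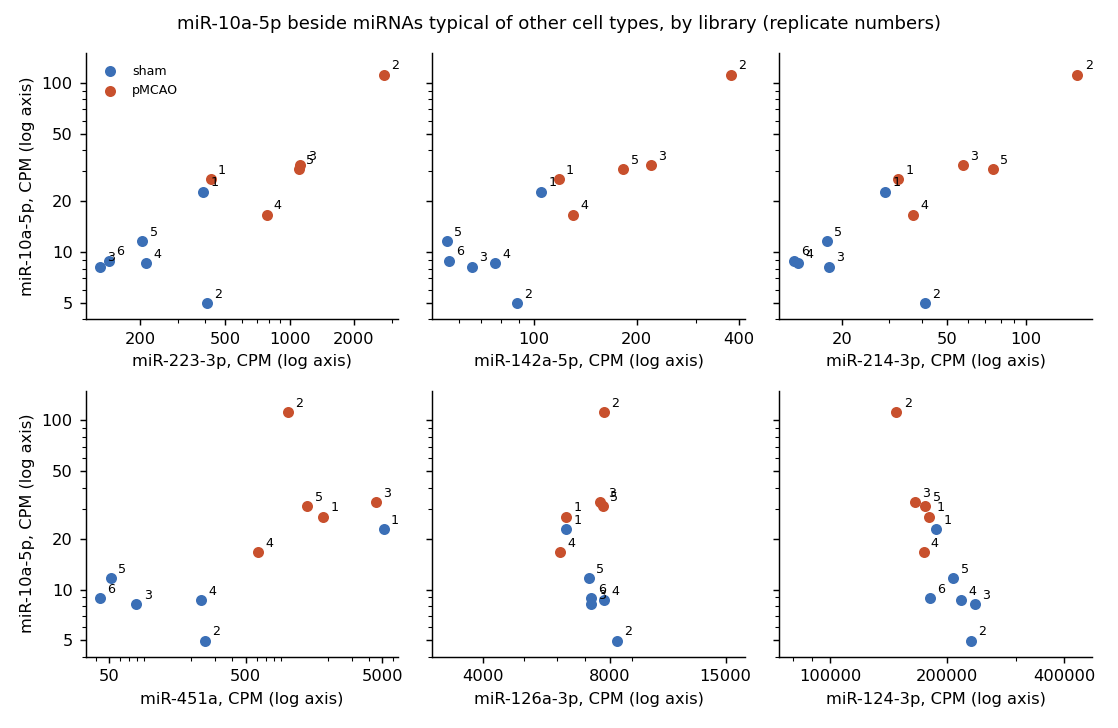
CPM of miR-10a-5p (vertical log axis) against CPM of a leukocyte (miR-223-3p, miR-142a-5p), fibroblast (miR-214-3p), erythrocyte (miR-451a), endothelial (miR-126a-3p) and neuron (miR-124-3p) miRNA (horizontal log axes), 1 point per library with its replicate number (blue sham, red pMCAO). pMCAO replicate 2 is highest on both axes in the 3 upper panels, and sham replicate 1 is the library with the most miR-451a.

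The miRNAs whose pattern was most like that of miR-10a-5p were found by Pearson's r of log2 CPM over the 11 libraries. They were miR-3099-3p (r = 0.93), miR-142a-5p (0.89), miR-702-3p (0.89), miR-199a-3p (0.89), a member of the fibroblast list, and miR-21a-5p (0.88), a miRNA known to rise in injured tissue. The 11 points share the group difference and the same library depths, so r is a description. After the mean of each group was subtracted, 3 of these 5 (miR-3099-3p, miR-199a-3p and miR-702-3p) were still among the 5 most alike. miR-142a-5p and miR-21a-5p were not. For miR-10b-5p the highest values were 0.74 for miR-467d-5p, 0.67 for miR-542-3p, 0.60 for miR-139-5p, 0.59 for miR-299a-5p and 0.57 for miR-504-5p, at counts so low that they are no finding.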

How the data were processed

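Small RNA libraries of 6 sham and 5 pMCAO mice were analysed. The authors deposited raw counts per mature miRNA name for each library. They removed adapters from the Ion Torrent reads, kept a narrow length range, mapped them to mm10 with Bowtie and counted them on miRBase annotation with HTSeq (FastQC for quality). The options of Bowtie and HTSeq are not given in the sources used here.

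Counts were filtered with filterByExpr (minimum count 10, minimum total 15), scaled by TMM and tested with edgeR 4.0.16 (glmQLFit, glmQLFTest, Benjamini-Hochberg, threshold 0.05) in R 4.3.3. Standard errors came from the F statistic. DESeq2 1.42.0, the study's tool, was an alternative, as were other scalings and filters, a robust fit, the replicate number as a block and leaving out each library. Leaving out sham replicate 1 and pMCAO replicate 2 together was added after seeing the data. The fit was tested on simulated data (seed 1). Pearson correlations used log2 CPM with a prior count of 2. The 6 miRNAs and the lists were chosen with earlier results of these data known. The named miRNAs are the 6, the other arms of their hairpins, the miR-99/100 relatives, the most abundant member of each cell type list and the 5 most alike in pattern, and other list members, miR-214-3p among them, were named after their values were seen. All 25 pairs of libraries within a group differed beyond sampling noise (lowest chi-square over degrees of freedom 18.0). Gene positions came from RefSeq and GENCODE vM21, both on GRCm38.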

Additional observations from a re-analysis of the deposited data

Results flagged for a closer look

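Among 43 groups of values, 9 had a library far from the others, measured as its gap to the nearest value over the whole range. For independent continuous values, chance gives about 1 in 20, or 2.15. The groups here are not all of that kind, so 9 and 2.15 cannot be compared. A library with counts always passes where all others have 0, as for miR-615-3p and miR-196a-2-3p below. The summed miR-99/100 relatives include miR-99a-5p. On the log2(CPM + 1) scale, miR-10b-5p was at 3.42 in pMCAO replicate 5, against 2.13 or less in the other pMCAO libraries. miR-615-3p was at 1.38 in pMCAO replicate 3 and miR-196a-2-3p at 1.09 in pMCAO replicate 1, where the other pMCAO libraries had 0, which are 2 counts and 1 count. miR-99a-5p was at 10.3 in pMCAO replicate 5, against 12.3 or more, and the summed miR-99/100 relatives were at 11.97 there, against 13.04 or more. In sham replicate 5, miR-99b-5p was at 9.01, against 11.1 or more, and miR-99a-3p at 6.68, against 7.29 or more. The erythrocyte list was at 12.4 in sham replicate 1, against 8.08 or less, and the oligodendrocyte list at 12.1 in sham replicate 4, against 12.3 or more. The high miR-10a-5p values of sham replicate 1 and pMCAO replicate 2 did not pass this limit.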

How the results depend on the processing

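miR-10a-5p stayed higher in pMCAO in every fit. Across the 8 other scalings, filters and tools the log2 difference was 1.78 to 2.18, and the miRNA was called in 7 of them. With the replicate number as a block (replicate block) it was 1.78 and not called, with 22 miRNAs called in all, 3 of them lower. Whether same-numbered samples belong together is not given by the labels. Of the same-numbered pairs, 3 of 5 had deviations correlated above 0.1 (-0.07 to 0.23), and 1 of 5 pMCAO libraries was closest to its own number. Pairs with different numbers ran from -0.25 to 0.23. With so few pairs, these values cannot decide whether the samples were paired. With 1 library left out, the log2 fold change of miR-10a-5p ran from 1.31 to 2.36 and it was called in 6 of 11 fits, and the log2 ratio of means of miR-10b-5p ran from -0.37 to 0.45, turning below 0 without pMCAO replicate 5 and without sham replicate 3 (-0.0066). The median share of miR-10a-5p in the pair was 9.94 to 12.7 percentage points higher in pMCAO. Over all miRNAs, 16 to 36 were called in these fits, 13 to 27 higher and 2 to 13 lower, and 3 to 7 members of the lists of other miRNAs, against 5 with all libraries. Without sham replicate 1 and pMCAO replicate 2 together, 22 were called, 4 of them lower. Total counts alone gave 43 higher and 1 lower, and moved the median of all tested miRNAs to 0.18 (log2). Upper-quartile scaling gave 23 higher and 4 lower, and no filter 25 and 8. At least 10 counts in every library gave 15 and 3, or 18 in all, with 406 miRNAs tested. The cause of these changes was not tested. With the group means subtracted, 3 of the 5 miRNAs most like miR-10a-5p and 3 of the 5 most like miR-10b-5p were the same. Low counts limit every statement on the members other than miR-10a-5p.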

Other observations

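With the mean of each group subtracted, the 5 miRNAs most like miR-10a-5p over the 11 libraries were miR-3099-3p (Pearson's r = 0.85), miR-199a-3p (0.76), miR-760-3p (0.73), miR-702-3p (0.72) and miR-210-3p (0.72). miR-3099-3p, which led both orders, had 41.2 CPM in sham replicate 1, where the next sham library had 27.7 CPM, and pMCAO replicate 2, at 55.5 CPM, stood above the next pMCAO library, at 43.8 CPM. Its log2 fold change between the groups was 0.55 (standard error 0.21) and did not pass the threshold (adjusted p = 0.132 from edgeR). All 5 were picked as the highest r among the other miRNAs that passed the filter, so r is a description. Picked in the same way, the highest r for miR-10b-5p was 0.78 (miR-467d-5p), at very low counts.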
